A study of Mus musculus with 4 samples.

Results

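Iron uptake, storage and sensing were followed through 10 genes: Tfrc, Tfr2, Steap3 and Slc11a2 for uptake, Fth1 and Ncoa4 for storage, Slc40a1 for export, and Aco1, Ireb2 and Fbxl5 for sensing. They were taken by name, as the features annotated to exactly 1 gene, though earlier results of these data were known. All 10 were measured, by 11 features, since Ncoa4 has 2, out of 19938 genes with a feature of their own. The samples were 2 cultures, A and B, of differentiating MEL cells, a mouse erythroleukemia line kept in medium with serum and puromycin and given estradiol over 48 hours, and 2 cultures, A and B, of differentiating ES-EP cells. ES-EP cells are erythroid progenitors made from embryonic stem cells, expanded with erythropoietin, insulin-like growth factor, dexamethasone and stem cell factor, and then differentiated for 24 hours with erythropoietin, insulin and mifepristone. Each culture gave 1 Affymetrix GeneChip Mouse Gene 1.0 ST array. Each group is a single cell line, undifferentiated cultures were not analysed here, and line, inducer, medium and hours differ together and cannot be told apart. No label says whether the duplicates were grown independently, so a p-value here speaks of the scatter among these 4 cultures only, which may be technical.

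A developing red cell takes in more iron than almost any other cell, because nearly all of it goes into heme. Iron arrives bound to transferrin, is internalised with the transferrin receptor, is reduced in the endosome by Steap3 and leaves it through the transporter encoded by Slc11a2. What is not used is held in ferritin, from which the receptor Ncoa4 delivers iron by carrying ferritin to the lysosome, or is exported by ferroportin, the product of Slc40a1. The iron regulatory proteins encoded by Aco1 and Ireb2 bind hairpins called iron-responsive elements (IREs) when iron is scarce, which stabilises the Tfrc mRNA and blocks translation of the ferritin mRNAs. Fbxl5 is the iron- and oxygen-binding subunit of the ubiquitin ligase that removes the Ireb2 protein. Much of this control acts on translation or protein turnover, which mRNA arrays do not show.

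Promoter sequence was available for 7 of the 10 genes in the RefSeq table of GRCm38.p6, which gave 16 windows of 250 bases before an annotated start. Slc11a2, Fbxl5 and Slc40a1 had no entry. The windows below belong to Tfrc and Fth1, the receptor and the ferritin subunit that were lower in MEL, to the iron regulatory pair Aco1 and Ireb2, of which only Aco1 was called, and to Steap3. They lie at chr16:32608646-32608895 (plus strand, the first of 2 Tfrc windows), chr19:9982396-9982645 (plus strand, the second of 2 Fth1 windows), chr4:40143015-40143264 (plus strand), chr9:54863505-54863754 (plus strand) and chr1:120271081-120271330 (minus strand, the first of 4 Steap3 windows). Capitals mark matches, on either strand, to the CACCC-type motif CCNCNCCC of KLF factors or to the GATA motif AGATAA.
Tfrc: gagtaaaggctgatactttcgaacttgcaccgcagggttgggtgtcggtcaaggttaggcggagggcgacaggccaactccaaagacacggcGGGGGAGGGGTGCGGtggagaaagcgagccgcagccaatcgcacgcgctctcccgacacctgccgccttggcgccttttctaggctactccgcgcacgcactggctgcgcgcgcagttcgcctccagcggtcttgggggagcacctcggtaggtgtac
Fth1: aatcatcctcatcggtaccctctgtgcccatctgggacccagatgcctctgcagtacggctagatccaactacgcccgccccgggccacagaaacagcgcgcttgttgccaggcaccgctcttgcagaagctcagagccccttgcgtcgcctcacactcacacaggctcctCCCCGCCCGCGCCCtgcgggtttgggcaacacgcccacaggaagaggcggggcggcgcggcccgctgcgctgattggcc
Aco1: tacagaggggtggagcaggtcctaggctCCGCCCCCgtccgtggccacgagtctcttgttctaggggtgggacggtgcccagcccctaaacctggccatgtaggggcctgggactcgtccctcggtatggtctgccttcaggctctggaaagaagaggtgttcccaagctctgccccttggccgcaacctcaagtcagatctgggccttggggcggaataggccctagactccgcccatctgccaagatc
Ireb2: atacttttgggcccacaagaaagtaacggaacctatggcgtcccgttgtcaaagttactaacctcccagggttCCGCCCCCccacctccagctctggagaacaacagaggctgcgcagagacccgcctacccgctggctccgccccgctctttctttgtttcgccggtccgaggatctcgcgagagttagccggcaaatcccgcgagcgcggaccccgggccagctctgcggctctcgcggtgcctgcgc
Steap3: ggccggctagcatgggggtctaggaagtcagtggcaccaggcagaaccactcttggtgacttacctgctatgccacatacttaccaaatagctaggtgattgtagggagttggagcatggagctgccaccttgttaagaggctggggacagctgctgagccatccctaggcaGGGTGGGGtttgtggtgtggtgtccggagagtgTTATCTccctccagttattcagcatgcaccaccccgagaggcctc
The KLF motif was present in 12 of the 16 windows, against 45.9% of the 32851 windows of the whole table. Each of the 7 genes had at least 1 such window, but a gene with several windows has more chances of a match. That count per gene has no background here. The printed windows all hold a match, while others, such as the first of Fth1 and the third of Steap3, hold none. In the Tfrc window 3 overlapping matches form a single block. The GATA motif was found in 1 of the 16 windows, that of Steap3, on the reverse strand, against 9.99% of all windows. The hypoxia response core ACGTG was present in 5 of 16 windows (16.6% of all), in Tfrc, Tfr2 and Ncoa4, and the antioxidant response core TGACNNNGC in 1 (10.2% of all), in the third window of Ncoa4. The E-box CACGTG, which contains ACGTG, and the STAT5 motif TTCNNNGAA had 0 matches (6.02% and 7.02% of all windows). Windows of a gene can overlap, and a match is a match of letters and no more.

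On the log2 scale of the arrays the 10 genes had values of 7.99 to 13.24, above the array medians of 5.78 to 5.91, so none lay near the dim end. The highest value of any feature was 14.14 to 14.61 per array. The array values were deposited as RMA log2 values, on which a difference of 1 is 2-fold. Standard errors of the differences were 0.08 to 0.09. Of the 10 genes 3 were higher in MEL (Fbxl5, Slc40a1 and Aco1), 3 were lower (Tfrc, Ncoa4 and Fth1), and 4 were not called (limma, adjusted p under 0.05 over 28944 features). The background was high: 19.1% of all features were called higher and 37.4% lower, or 21.8% and 36.9% of genes. A share of 3 in 10 in either direction is near that background and is no result about iron genes as a group. Their median difference of MEL minus ES-EP was 0.04, beside -0.14 over all genes, and -0.11 over the 4585 genes at least as bright as the dimmest of the 10.

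In all 10 genes the MEL values lay wholly above (5 genes) or wholly below (5 genes) the ES-EP values. Such separation was also seen in 28.7% (MEL above) and 51.5% (MEL below) of all genes, or 26.4% and 53.1% of features. In all 11 features MEL culture B read higher than MEL culture A, by 0.04 to 0.16. The same was true of 85.3% of the 4585 genes of like brightness, whose median difference of B minus A was 0.09. This offset is part of the MEL spread in every value below, and scalings between arrays bear on it.

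**Figure D1:**
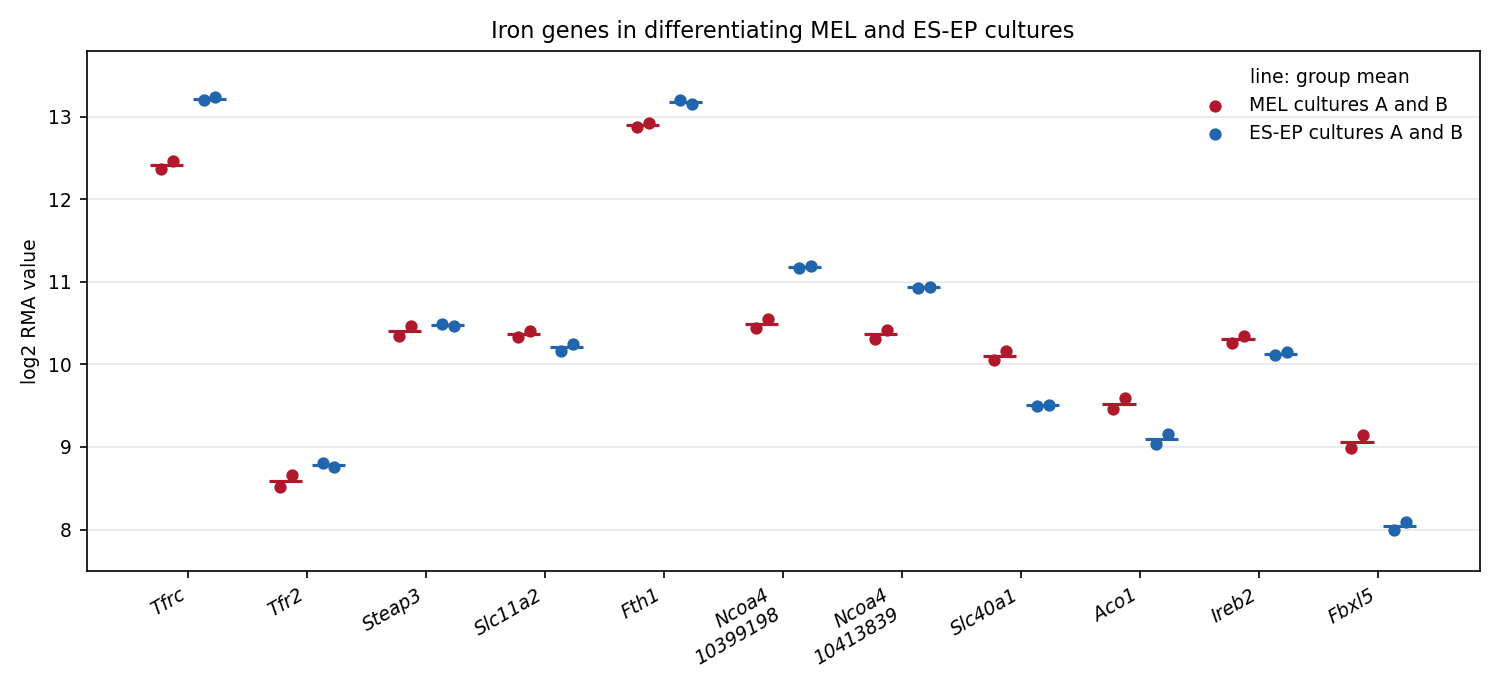
Log2 RMA values (vertical axis) of the 11 features of the 10 iron genes (horizontal axis, Ncoa4 with its feature numbers), with MEL cultures in red on the left and ES-EP cultures in blue on the right of each gene. Points are cultures A and B and lines are group means. Tfrc and Ncoa4 sit clearly lower and Fbxl5, Slc40a1 and Aco1 clearly higher in MEL, while the Steap3 values nearly touch.

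The transferrin receptor mRNA was lower in MEL, while the other genes of uptake did not pass the test. Tfrc, whose product carries transferrin into the cell (feature 10435075, gene on chromosome 16), had log2 values of 12.37 and 12.46 in MEL, against 13.20 and 13.24 in ES-EP cells. The groups were 0.74 apart at their nearest, and the cultures of a group at most 0.10. The means of 12.42 ± 0.07 in MEL, against 13.22 ± 0.03 in ES-EP cultures (SD, n = 2 each) differed by -0.81 ± 0.08 (SE), or 1.75-fold lower in MEL (limma, adjusted p = 0.000193). This call held under all 12 alternatives tried, with differences of -0.85 to -0.70 and adjusted p no higher than 0.00217. Within 4 arrays, the genes with values closest to those of Tfrc by Euclidean distance were Rplp1, Car2 and Rbm3, at distances of 0.37, 0.41 and 0.45, which is a statement about values and not about function.

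Tfr2, the second transferrin receptor, which in mouse erythroblasts associates with the erythropoietin receptor, had values of 8.52 and 8.66 in MEL, against 8.80 and 8.76 in ES-EP cells. MEL was lower by 0.11 at the nearest values, less than the 0.14 between the MEL cultures. The difference of -0.19 had a 95% interval of -0.40 to 0.02 and did not pass (limma, adjusted p = 0.1002). Without MEL culture B it was -0.26 and passed narrowly (adjusted p = 0.0498).

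Steap3, the ferrireductase of the endosome, had 10.34 and 10.46 in MEL, against 10.49 and 10.47 in ES-EP cells. The nearest values were 0.01 apart. The difference of -0.08, with a 95% interval of -0.28 to 0.12, did not pass (limma, adjusted p = 0.4501), and its sign turned after quantile normalization (0.08) and cyclic loess (0.03).

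Slc11a2, the divalent metal transporter DMT1 that moves iron out of the endosome, had 10.33 and 10.40 in MEL, against 10.16 and 10.25 in ES-EP cells. MEL was higher by 0.09 at the nearest values, about the spread between the ES-EP cultures. The difference of 0.16 (95% interval -0.04 to 0.36) did not pass on the deposited values (limma, adjusted p = 0.141). It was 0.32 after quantile normalization (adjusted p = 0.0124) and 0.27 after cyclic loess (adjusted p = 0.0226), and passed at 0.16 with an intensity trend in the prior (adjusted p = 0.0383). Over its alternatives the adjusted p ran from 0.0124 to 0.511.

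**Figure D2:**
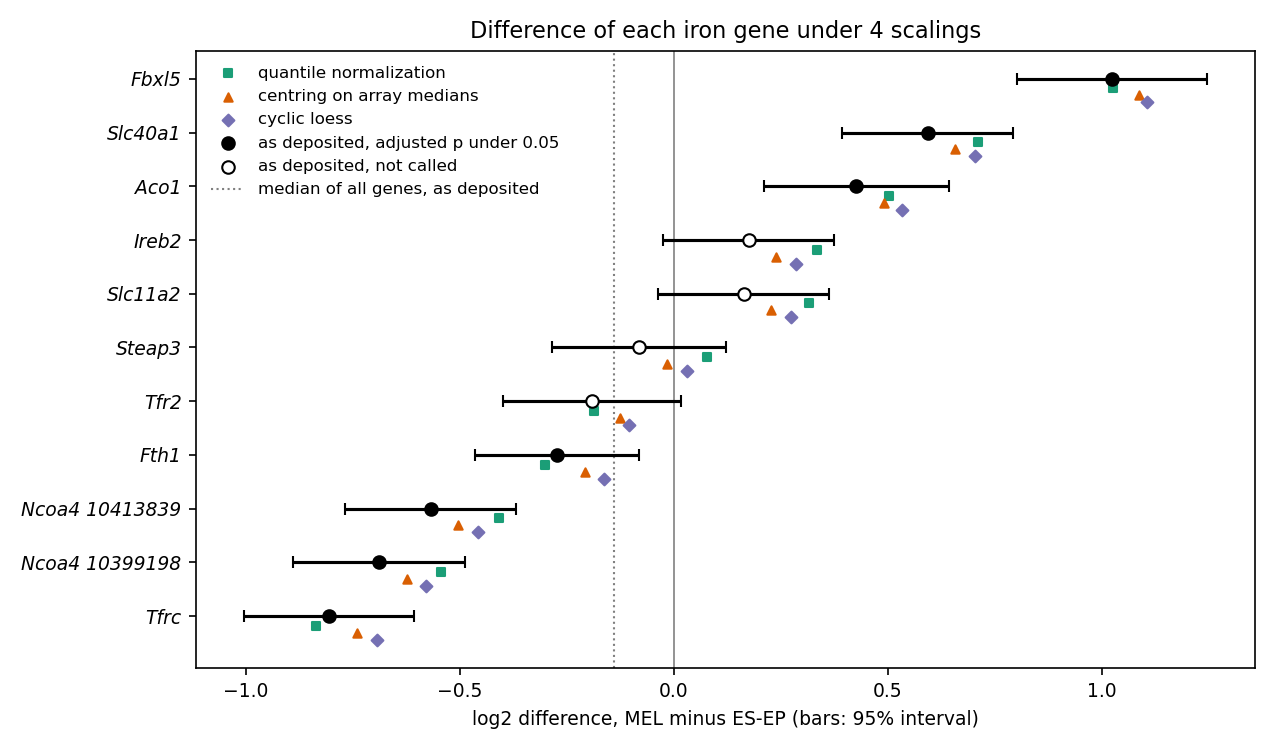
Log2 difference of MEL minus ES-EP (horizontal axis) for each feature of the iron genes (vertical axis), with 95% intervals for the deposited values and coloured symbols for quantile normalization, centring and cyclic loess. Filled circles passed at an adjusted p under 0.05, and the dotted line is the median of all genes at -0.14. Every feature but that of Steap3 stays on its side of 0 under all 4 scalings, though Fth1, Slc11a2 and Ireb2 change their call.

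Both storage genes were lower in MEL, Ncoa4 by more than Fth1. The heavy subunit of ferritin, Fth1 (feature 10461402, gene on chromosome 19), carries the ferroxidase that loads iron into the shell. It had 12.88 and 12.92 in MEL, against 13.20 and 13.15 in ES-EP cells. The groups were 0.23 apart at their nearest. The means of 12.90 ± 0.03 in MEL, against 13.17 ± 0.04 in ES-EP cultures (SD, n = 2 each) differed by -0.27 ± 0.08 (SE), 1.21-fold lower in MEL (limma, adjusted p = 0.0243).

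The Fth1 call was the least stable of the 6. It was lost after centring (-0.21, adjusted p = 0.178) and cyclic loess (-0.16, adjusted p = 0.0901), and without MEL culture A (adjusted p = 0.0503), ES-EP culture A (0.166) or ES-EP culture B (0.0984). The mouse genome also holds Fth1 copies, 2 of them named Fth-ps pseudogenes in RefSeq, and whether the feature also reads such copies was not tested.

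Ncoa4, the receptor that takes ferritin to the lysosome and so frees its iron, had on feature 10413839 values of 10.31 and 10.42 in MEL, against 10.93 and 10.94 in ES-EP cells. On feature 10399198 it had 10.44 and 10.55 in MEL, against 11.17 and 11.19 in ES-EP cells. On both features the lower group was MEL and the groups were at least 0.51 apart. The differences were -0.57 ± 0.08 (SE, 1.48-fold lower in MEL, limma, adjusted p = 0.00112) and -0.69 ± 0.08 (1.61-fold lower, adjusted p = 0.000433).

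Both Ncoa4 calls held under all 12 alternatives, with differences of -0.62 to -0.41 for the first feature and -0.74 to -0.55 for the second. By feature number, those next to 10413839 belong to Msmb and Parg, which flank Ncoa4 on chromosome 14. Those next to 10399198 belong to Sp8 and Macc1 on chromosome 12, between which RefSeq places the pseudogene Ncoa4-ps. Which of these loci the second feature reads was not tested.

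Ferroportin mRNA was higher in MEL. Slc40a1, the gene of this iron exporter (feature 10354374, gene on chromosome 1), had 10.05 and 10.16 in MEL, against 9.50 and 9.51 in ES-EP cells. The groups were 0.53 apart at their nearest, and the MEL cultures 0.11. The means of 10.10 ± 0.08 in MEL, against 9.51 ± 0.01 in ES-EP cultures (SD, n = 2 each) differed by 0.59 ± 0.09 (SE), 1.51-fold higher in MEL (limma, adjusted p = 0.000927). The call held under all 12 alternatives, at 0.54 to 0.71. Slc40a1 is also a gene of macrophages. Of 12 macrophage markers 0 were higher and 5 were lower in MEL, beside 21.8% and 36.9% of all genes. After quantile normalization or cyclic loess 3 were higher and 5 lower. The mean log2 level of that list was 4.71 and 4.64 in MEL cultures, against 5.08 and 5.02 in ES-EP cultures, with no member above 7.26 on any array. The listed markers with the largest lower differences, Csf1r (4.71 in MEL, 5.63 in ES-EP cells) and Cd14 (4.26 and 5.24), were dim in both groups. Whether macrophages had a part in the Slc40a1 values was not tested.

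Among the sensors, Fbxl5 and Aco1 were higher in MEL and Ireb2 was not called. Fbxl5 (feature 10529801, gene on chromosome 5) had 8.99 and 9.15 in MEL, against 7.99 and 8.09 in ES-EP cells. This was the widest separation among the 10 genes, at 0.89 between the nearest values. The means of 9.07 ± 0.11 in MEL, against 8.04 ± 0.07 in ES-EP cultures (SD, n = 2 each) differed by 1.02 ± 0.09 (SE), 2.03-fold higher in MEL (limma, adjusted p = 9.86e-05). Fbxl5 alone of the 10 was at least 2-fold apart, upward, as were 7.38% of genes upward and 4.93% downward (6.27% and 5.17% of features). The call at adjusted p under 0.05 held under all 12 alternatives, at 0.94 to 1.10, but without MEL culture B (0.94) or ES-EP culture A (0.97) the difference was just under 2-fold. The genes whose values over the 4 arrays lay closest to those of Fbxl5 were Tfe3, Eml4 and Cd151, at Euclidean distances of 0.09, 0.11 and 0.13.

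Aco1 encodes iron regulatory protein 1, which is a cytosolic aconitase while it holds an iron-sulfur cluster and binds RNA without it. It had 9.46 and 9.59 in MEL, against 9.04 and 9.16 in ES-EP cells, and the groups were 0.30 apart at their nearest. The means of 9.53 ± 0.09 in MEL, against 9.10 ± 0.08 in ES-EP cultures (SD, n = 2 each) differed by 0.43 ± 0.09 (SE), 1.34-fold higher in MEL (limma, adjusted p = 0.00633). It was no longer called once ES-EP culture A was left out (0.37, adjusted p = 0.0530) and held under the other 11 alternatives.

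Ireb2 encodes iron regulatory protein 2, which holds no such cluster and is degraded when iron is plentiful. It had 10.26 and 10.35 in MEL, against 10.11 and 10.15 in ES-EP cells. MEL was higher by 0.10 at the nearest values, as far as the MEL cultures lay apart. The difference of 0.17 (95% interval -0.03 to 0.37) did not pass on the deposited values (limma, adjusted p = 0.118). It passed after quantile normalization (0.33, adjusted p = 0.00830), after cyclic loess (0.29, adjusted p = 0.0167) and with an intensity trend in the prior (0.17, adjusted p = 0.0296), and its adjusted p over the alternatives ran up to 0.4015.

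Differences between iron genes within an array do not move when a whole array is shifted, so 6 pairs of genes were compared in this way. Each value is a difference of log2 values of 2 features and shows unequal change, not which mRNA is more abundant. An exact permutation test over 4 arrays cannot give a two-sided p under 0.333, and all 6 pairs gave 0.333, also after adjustment over the 6. The values are therefore a description.

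Slc40a1 minus Tfrc, the exporter against the importer, was -2.32 and -2.31 in MEL, against -3.69 and -3.73 in ES-EP cells, a shift of 1.40 or 2.64-fold. This was the largest shift of the 6 pairs, with SDs of 0.01 and 0.03. Fth1 minus Tfrc was 0.52 and 0.46 in MEL, against 0.00 and -0.10 in ES-EP cells, a shift of 0.53. Fth1 was thus higher relative to Tfrc in MEL although its own value was lower. The light subunit Ftl1 differed by -0.78, close to the -0.81 of Tfrc. Tfr2 minus Tfrc was -3.85 and -3.81 in MEL, against -4.40 and -4.48 in ES-EP cells, a shift of 0.61 between the receptor paralogs.

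Fth1 minus Ncoa4 was 2.45 and 2.37 in MEL, against 2.03 and 1.96 in ES-EP cells, a shift of 0.42 that was 0.30 with the Ncoa4 feature numbered among chromosome 14 genes. Fbxl5 minus Ireb2, the ligase subunit against its substrate, was -1.27 and -1.21 in MEL, against -2.12 and -2.06 in ES-EP cells, a shift of 0.85. Ireb2 minus Aco1 was 0.80 and 0.76 in MEL, against 1.06 and 1.00 in ES-EP cells, a shift of -0.25. In all 6 pairs the MEL and ES-EP values did not overlap, which was also so for most single genes (28.7% with MEL above and 51.5% with MEL below).

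**Figure D3:**
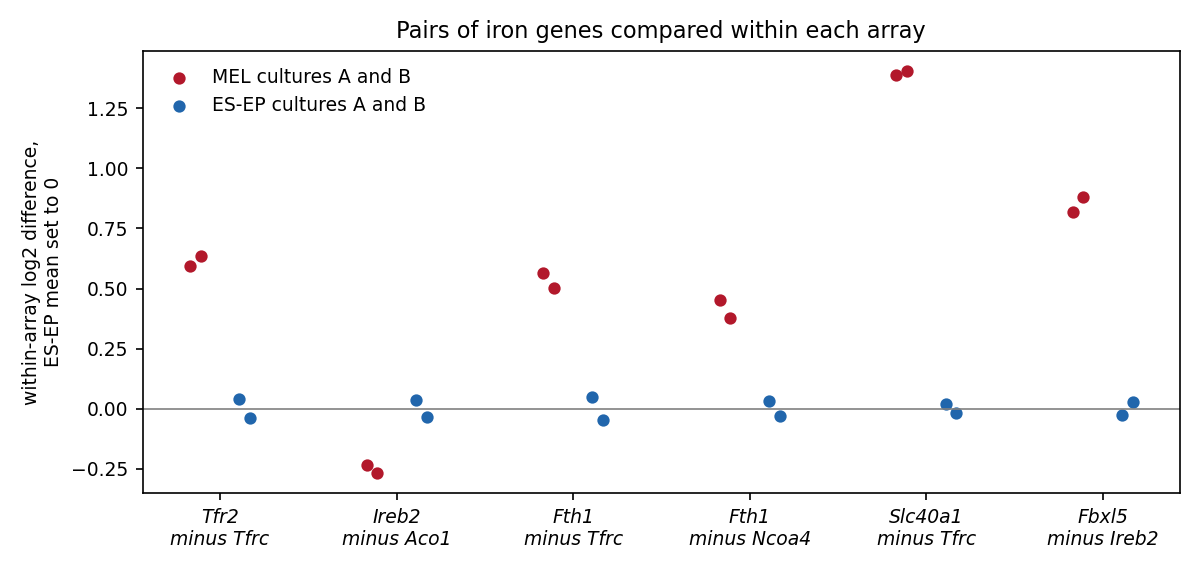
Within-array log2 difference of 6 pairs of iron genes (horizontal axis), with the ES-EP mean of each pair set to 0 (vertical axis, log2 units). Red points on the left are MEL cultures A and B and blue points on the right ES-EP cultures A and B. Slc40a1 minus Tfrc shifts most, by 1.40, and only Ireb2 minus Aco1 shifts downward, by 0.25.

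The other genes of iron handling were read from 9 lists with 101 different genes, of which 93 were measured. Of these 19 were higher and 35 lower in MEL, shares of 20.4% and 37.6% that lie beside 21.8% and 36.9% of all genes. Their median difference was -0.11. The pooled counts are near those of all genes, while single lists vary, and each is described by its members. The same all-gene shares are the background for each list count below.

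Genes around the transferrin cycle went both ways. Of 17 uptake genes 3 were higher and 5 lower, with a median of -0.08. Slc39a14, a zinc transporter that also carries iron not bound to transferrin, had 7.32 and 7.56 in MEL, against 6.04 and 6.03 in ES-EP cells, and was 2.65-fold higher (limma, adjusted p = 2.94e-05). Its relative Slc39a8 was 1.94-fold lower in MEL (9.79 and 9.93, against 10.82 and 10.82). Vps35, a retromer subunit of the sorting route out of endosomes, was 1.97-fold lower (10.48 and 10.61, against 11.54 and 11.51). The proton pump subunit Tcirg1 was 1.25-fold higher, a call that was lost without MEL culture A, MEL culture B or ES-EP culture A (adjusted p up to 0.202). Other listed subunits of this pump did not follow it: Atp6v0d1 was lower (-0.93) and Atp6v1a was not called (0.07). With quantile normalization 7 of the 17 uptake genes were higher and 4 lower, with cyclic loess 6 and 4. The list median turned positive in both (0.12 and 0.13).

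In the storage list the light ferritin subunit was lower, as was Fth1. Of 9 genes 3 were higher and 4 lower, with a median of -0.11 that turned positive with quantile normalization (0.11) and cyclic loess (0.10). Ftl1, the light subunit that aids mineral formation, had 12.08 and 12.14 in MEL, against 12.86 and 12.93 in ES-EP cells, 1.72-fold lower (limma, adjusted p = 0.000202). Herc2, the ubiquitin ligase that removes NCOA4 when iron is plentiful, was 1.61-fold lower (7.96 and 8.17, against 8.71 and 8.79). Pcbp2, an iron chaperone that delivers iron to ferritin, was 1.63-fold higher (12.78 and 12.82, against 12.05 and 12.14). Its relative Pcbp4 was 2.92-fold higher (7.85 and 7.83, against 6.20 and 6.39).

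Of 9 listed genes of iron sensing and mRNA decay 3 were higher and 2 lower, with a median of 0.19. With quantile normalization or cyclic loess 5 were higher and 2 lower, with a median of 0.30 in both. Cul1, the scaffold of the ligase that contains Fbxl5, had 9.54 and 9.67 in MEL, against 10.70 and 10.70 in ES-EP cells. It was 2.14-fold lower in MEL (limma, adjusted p = 4.45e-05), opposite to Fbxl5. Egln1, an iron-dependent oxygen sensor, was 1.53-fold higher and Rc3h2, a roquin protein that destabilises target mRNAs, 1.498-fold higher. Epas1, the hypoxia factor HIF2A whose mRNA carries an IRE, was dim (5.45 and 5.29 in MEL, 6.03 and 6.01 in ES-EP cells) and 1.57-fold lower.

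Of 5 measured mRNAs outside the 10 genes that are known to carry an IRE, 1 was higher and 3 lower, with a median of -0.65. Among mRNAs with the element ahead of the coding sequence, Alas2, Ftl1 and Epas1 were lower, as was Fth1 of the 10 genes, while Slc40a1 was higher (0.59). Alas2, the first enzyme of erythroid heme synthesis, had 11.12 and 11.03 in MEL, against 12.44 and 12.37 in ES-EP cells. Cdc14a, a phosphatase with the element behind the coding sequence in human transcripts, had 7.78 and 7.93 in MEL, against 6.09 and 6.16 in ES-EP cells, 3.33-fold higher (limma, adjusted p = 5.92e-06). Of the others that carry it in that place, Tfrc was lower (-0.81), and Slc11a2 (0.16) and Cdc42bpa (0.18, named after its value was seen) were not called. Transcript forms with and without the element were not told apart, for Slc40a1 and Slc11a2 among others, so these values are of genes and not of IRE-bearing forms.

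Genes of export and its hormonal control differed in both directions around Slc40a1. Of 15 genes 2 were higher and 4 lower, with a median of -0.08 that turned positive with quantile normalization (0.01, with 3 higher and 4 lower) and cyclic loess (0.12, with 4 and 4). Erfe, the erythroblast hormone that lowers hepcidin, had 7.24 and 7.23 in MEL, against 9.27 and 9.41 in ES-EP cells, 4.31-fold lower in MEL (limma, adjusted p = 1.97e-06). Neo1, a receptor of the hemojuvelin pathway, was 3.03-fold lower but dim in MEL (4.18 and 4.41, against 5.93 and 5.86). Genes of bone morphogenetic protein signalling went both ways. Smad5 and Smad4, which carry these signals, were 3.31-fold and 2.15-fold higher in MEL. Smad1, a relative of Smad5, was lower (-1.03), as was the ligand gene Bmp2 (-0.83).

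Among 9 genes that release or move heme, 1 was higher and 4 lower under all 4 scalings, beside 21.8% and 36.9% of all genes, and the median was -0.13. Hmox1, the oxygenase that frees iron from heme, had 8.15 and 8.43 in MEL, against 10.07 and 10.06 in ES-EP cells, and was 3.42-fold lower (limma, adjusted p = 1.31e-05). Abcg2, a transporter that exports porphyrins, was 2.22-fold lower (10.06 and 10.25, against 11.29 and 11.33). Slc48a1, which moves heme out of lysosomes, was 1.28-fold higher, a call that needed both ES-EP cultures (adjusted p up to 0.0572 with either left out).

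The assembly of iron-sulfur clusters, on which the choice of Aco1 between enzyme and RNA-binding protein depends, was read from a cytosolic and a mitochondrial list. Of 8 cytosolic genes 6 were lower and 1 higher, under each of the 4 scalings, beside 36.9% lower and 21.8% higher among all genes. The list median was -0.72 on the deposited values, beside -0.14 over all genes. Nubp2, part of the scaffold, had 10.04 and 10.14 in MEL, against 11.17 and 11.09 in ES-EP cells, 2.06-fold lower (limma, adjusted p = 5.93e-05). Ciapin1, an electron carrier of this machinery, was 2.06-fold lower (9.49 and 9.67, against 10.66 and 10.59). Mms19, which hands clusters to DNA repair and replication proteins, was 1.49-fold higher.

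Of 13 mitochondrial assembly genes 2 were higher and 6 lower, which became 4 and 4 after cyclic loess, with a median of -0.13. Lyrm4, the partner of the cysteine desulfurase, was 2.16-fold lower (9.43 and 9.56, against 10.66 and 10.55), and the cochaperone Hscb 2.14-fold lower (7.62 and 7.64, against 8.71 and 8.74). The ferredoxin gene Fdx1 was 2.06-fold higher (8.20 and 8.28, against 7.17 and 7.23). Bola3 was 1.19-fold higher, a call lost without MEL culture B, ES-EP culture A or ES-EP culture B (adjusted p up to 0.196).

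Genes listed with NRF2 and BACH1, factors that in other cells control ferritin, Hmox1 and Slc40a1, went both ways. Of 12 genes 3 were higher and 5 lower under all 4 scalings, beside 21.8% and 36.9% of all genes on the deposited values. The list median was -0.17, beside -0.14 over all genes. Both are near the background and are no result about this list. The 12 are not all targets: they include the regulators Nfe2l2 and Bach1, which were not called. The regulator Keap1 (0.69) was among the 3 called higher on the deposited values. Me1, the cytosolic malic enzyme, had 10.24 and 10.28 in MEL, against 7.27 and 7.31 in ES-EP cells, 7.84-fold higher (limma, adjusted p = 3.08e-07). Srxn1, which repairs peroxiredoxins, was 1.70-fold higher, while Gclc, which starts glutathione synthesis, was 1.77-fold lower, as were Hmox1 and Ftl1 above.

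**Figure D4:**
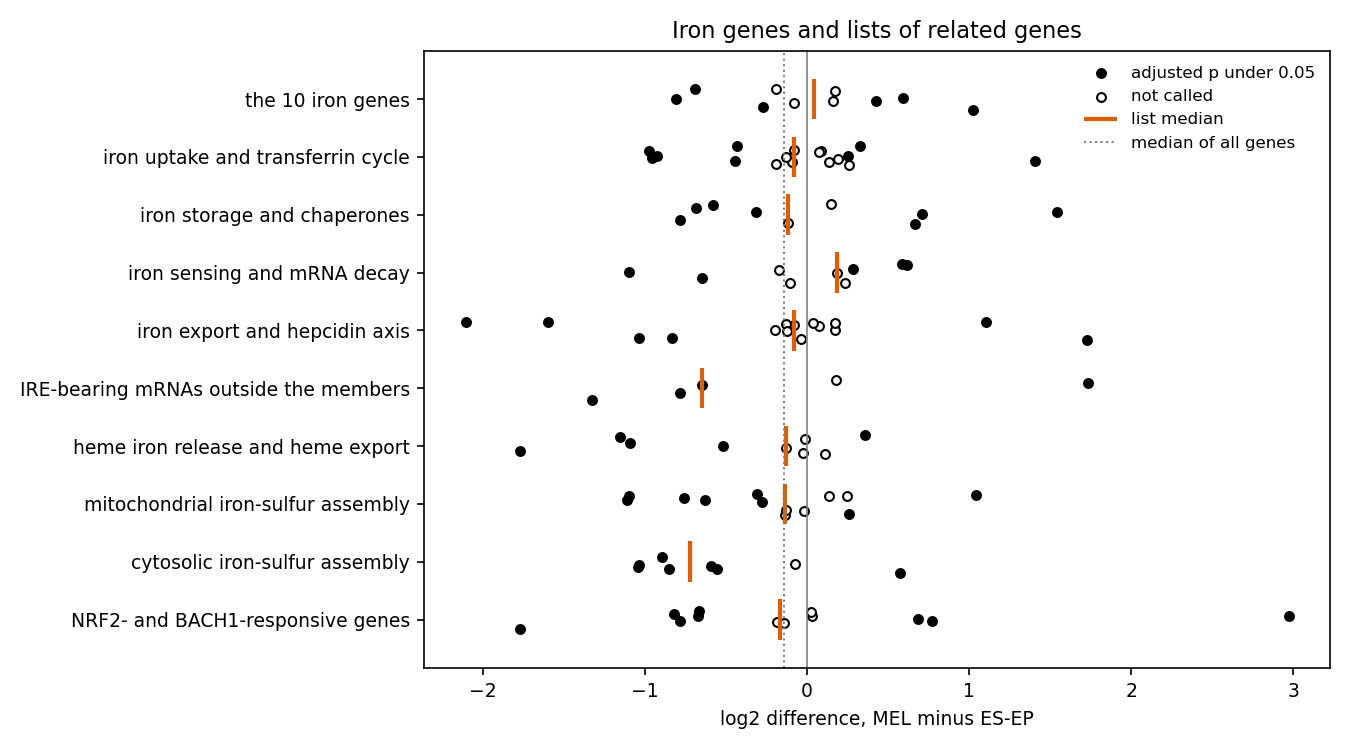
Log2 difference of MEL minus ES-EP (horizontal axis) for the 10 iron genes and for each gene of 9 lists of related genes (vertical axis), with filled points for an adjusted p under 0.05, orange bars for list medians and a dotted line for the median of all genes at -0.14. Points are spread vertically only to be seen. The 10 iron genes lie between -0.81 and 1.02, and the cytosolic iron-sulfur list has the lowest median at -0.72.

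Erythroid markers differed between the groups, and not all of them were bright in MEL. Of 9 measured erythroid markers 2 were higher in MEL and 7 were lower, beside 21.8% higher and 36.9% lower among all genes. The higher 2 were Gata1, at 11.94 in MEL, against 11.49 in ES-EP cultures, and the erythropoietin receptor gene Epor, at 11.05 and 10.63. The most unequal were the red cell anion exchanger Slc4a1, at 7.04 in MEL, against 12.48 in ES-EP cultures, and the embryonic globin Hbb-bh1, at 4.35 in MEL, against 7.60 in ES-EP cultures. The MEL value of Hbb-bh1 lay below the array medians, and that of Slc4a1 below the brightest macrophage marker value of 7.26. Of 7 hepatocyte markers, which bear on Tfr2 as a liver gene, 1 was higher and 3 were lower in MEL, the list's mean was 4.77 and 4.58 in MEL cultures against 4.90 and 4.96 in ES-EP cultures, and no member exceeded 6.29. Alb was at 4.13 in MEL, against 4.68 in ES-EP cultures, Tat at 4.81 and 5.61, and Cyp2e1 at 4.27 and 4.01, the last a call lost with the replicate letter as a block and without MEL culture B or either ES-EP culture (adjusted p up to 0.269). The markers thus went both ways, as did the 10 iron genes. Whether the state of the erythroid cells had a part in the values of the 10 genes was not tested. In bulk cultures, fewer cells of a kind and less RNA per cell cannot be told apart.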

How the data were processed

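RNA of 4 samples, labelled A and B in each group and called cultures here, was measured on 1 array each. Values were deposited on a log2 scale, after RMA by the authors, per the submitters' processing notes. RMA usually includes quantile normalization between arrays, but the medians over tested features still differed (5.78 to 5.91). A change in total RNA per cell cannot be seen on this scale. Further settings of that step are not given in the sources used. Of 35557 features, 6613 control features were left out and 28944 tested. The platform annotation, updated through Entrez identifiers with RefSeq GRCm38.p6 (21698 features matched), gave 1 gene to 21789 features, several to 1621 and none to 5534, and features with several were left unnamed. The brightest feature represents a gene. MEL was set against ES-EP by limma 3.58.1 under R 4.3.3 (lmFit, eBayes, Benjamini-Hochberg over all features, two-sided), with 2 residual and 5.15 prior degrees of freedom. The small number of arrays limits precision. The procedure was tested on simulated data with independent noise and few changed features. These data have many called features and an offset between the MEL arrays, so that test does not vouch for the calls here. The members and lists were chosen with earlier results of these data known. Named genes are all members, the 2 most changed genes per list and direction among those called, and the 3 nearest profiles of the highest and lowest member. Other listed genes, such as Smad1, Bmp2, Atp6v0d1, Atp6v1a, Keap1 and Cdc42bpa, were named after their values were seen. Alternatives were 3 scalings, 2 priors, a filter on dim features, features with 1 gene only, the mean of a gene's features, the replicate letter as a block, and each array left out.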

Additional observations from a re-analysis of the deposited data

How the results depend on the processing

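Among the alternative values of the 11 features, 117 kept direction and side of the threshold, 6 lost the call (Fth1 and Aco1), 7 gained it (Slc11a2, Ireb2 and Tfr2) and 2 turned in sign (Steap3, 0.0773 after quantile normalization and 0.0296 after cyclic loess). The count of higher members, 3, became 5 after quantile normalization, cyclic loess and an intensity trend in the prior, and stayed between 2 and 3 with an array left out. The count of lower members, 3, ran from 2 to 4 with an array left out. The count of members at least 2-fold higher, 1, was 0 without MEL culture B or ES-EP culture A and so ran from 0 to 1. The listed genes called higher, 19, became 30 after cyclic loess, and 14 to 19 with an array left out, and those called lower, 35, ran from 31 to 35. After quantile normalization 4 within-array shifts moved by more than the replicate SD: Ireb2 minus Aco1 to -0.17, Fth1 minus Ncoa4 to 0.24, Slc40a1 minus Tfrc to 1.55 and Fbxl5 minus Ireb2 to 0.69. With the other Ncoa4 feature, an alternative chosen after seeing the data, Fth1 minus Ncoa4 was 0.30. The all-gene median, -0.14 on the deposited values, was -0.02 with quantile normalization, -0.07 with arrays centred and 0.02 with cyclic loess, and the calls of all genes went from 21.8% higher and 36.9% lower to 29% and 24.5% after cyclic loess, so differences as small as those of Fth1, Ireb2 and Slc11a2 change with the scaling, and the cause was not tested. With an array left out, the lone culture of its group is assumed to vary like the other group. Deviations of same-lettered cultures from their group means correlated with r = 0.11 over features, and with 2 pairs the letters are not shown to pair the cultures. With the letter as a replicate block 3 members were higher and 3 lower, as without it.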
